A study of Homo sapiens with 2 samples.

Results

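The genes described here encode the respiratory chain, the set of enzyme complexes in the inner mitochondrial membrane that pass electrons to oxygen and make ATP. They were measured by RNA-seq in HMC3 cells, an established line of human microglia. The cells were wild type and had received either rhPOSTN (recombinant human periostin, a matricellular protein that binds integrins) or PBS, its vehicle. Each group held 3 libraries, the 3 numbered value columns deposited for the 1 sample record of that group. The study used a single dose and a single duration, and whether the 3 were grown as separate cultures is not stated, so every p-value below covers no more than the scatter of these libraries, which may be technical. A gene was included when its locus was on chrM, the mitochondrial chromosome, or when its symbol belonged to the NDUF, SDH, UQCR, CYC1, COX or ATP5 subunit families. This gave 91 of the 11943 protein-coding genes in the tables, 13 of them on chrM and 78 in the nucleus. Complex I had 7 chrM and 37 nuclear genes, complex II had 4 nuclear genes and 0 chrM genes, complex III had 1 and 10, complex IV had 3 and 11, and complex V had 2 and 16. NDUFA4 was counted with complex IV, where its protein is found. Values are FPKM (fragments mapped to a gene, relative to the length of its transcripts and to all mapped fragments in the library), log2 values are log2(FPKM + 1), and differences are rhPOSTN minus PBS on that scale. Genes with a mean of at least 1 FPKM in at least 1 group were tested with limma, and 90 of the 91 members passed that filter.

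One library, the third of the PBS group, differed from all others, and the differences of named genes are therefore given with and without it. Over the 10982 tested genes, PBS library 3 lay more than 0.5 on the log2 scale above the mean of PBS libraries 1 and 2 for 16.7% and more than 0.5 below it for 20.9%. The median FPKM of a gene was similar, between 6.29 and 6.41 with rhPOSTN, against 5.76 to 6.12 with PBS. Sequencing depth cannot be read from FPKM and is unknown here. Of 11 microglial and myeloid markers, 2 had a row in the tables, TREM2 and CD68, and their summed level was 13.2 to 18.1 FPKM with rhPOSTN, against 18.6, 19.6 and 8.13 FPKM in PBS libraries 1 to 3. The defining microglial genes AIF1, CX3CR1, P2RY12 and CSF1R had no row. Of the 5 markers of fibroblasts and pericytes, 3 were listed (COL1A1, COL1A2 and PDGFRB), with a sum of 109.7 to 145.0 FPKM with rhPOSTN, against 117, 107 and 333 FPKM in PBS libraries 1 to 3. All 4 epithelial markers were listed, with sums of 97.6 to 109 FPKM with rhPOSTN, against 102, 108 and 149.9 FPKM in PBS libraries 1 to 3. PBS library 3 was thus the lowest of the 6 for the myeloid sum and the highest for the fibroblast and epithelial sums. It was also the lowest for the neuron (SNAP25 and TUBB3), oligodendrocyte (MBP) and endothelial (CDH5) markers, at 2.99, 1.22 and 0.422 FPKM. With rhPOSTN their lowest sums were 3.67, 1.45 and 0.460 FPKM, so the low side was not particular to myeloid markers. No astrocyte marker had a row. Single markers did not all follow their sum. PDGFRB and CDH1 were lowest in PBS library 3, at 7.80 and 1.04 FPKM. TREM2 and TUBB3 had 3.56 and 2.18 FPKM there, within the range of the other libraries. CD68, SNAP25, COL1A1, COL1A2, EPCAM, KRT8 and KRT18 followed their sums. Whether these marker levels have a part in the values below was not tested.

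Complex I oxidises NADH, complex II oxidises succinate, complex III passes the electrons from ubiquinol to cytochrome c, complex IV passes them to oxygen, and complex V, the ATP synthase, uses the proton gradient that complexes I, III and IV build. Complexes I, III, IV and V are mosaics of both genomes, because their most hydrophobic core subunits are encoded in mitochondrial DNA and all other subunits in the nucleus. The genes of chrM are transcribed as long polycistronic precursors, one from each strand. These are cut mostly at tRNAs between the genes, and most, but not all, of the mRNAs are then polyadenylated. Their mRNAs are therefore made together but differ in stability, and nuclear subunit mRNAs are made gene by gene in the nucleus.

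All 13 chrM genes are shown by the last 20 bases of the gene, because the reading frames end in unusual ways and several mRNAs need their poly(A) tail to complete a stop codon. Capitals mark the stop codon, or the letters of it that the gene encodes. The sequences were read 5′ to 3′ from the GENCODE 29 transcripts (GRCh38), in which start, end and strand were the same as in the deposited tables for 13 of 13 genes.
MT-ND1 (chrM:3307-4262, plus strand, 956 bases): agcattccccctcaaaccTA
MT-ND2 (chrM:4470-5511, plus strand, 1042 bases): ttttatactaataatcttaT
MT-CO1 (chrM:5904-7445, plus strand, 1542 bases): ccgtatacataaaatctAGA
MT-CO2 (chrM:7586-8269, plus strand, 684 bases): ggcccgtatttaccctaTAG
MT-ATP8 (chrM:8366-8572, plus strand, 207 bases): cattgcccccacaatccTAG
MT-ATP6 (chrM:8527-9207, plus strand, 681 bases): acctgcacgacaacacaTAA
MT-CO3 (chrM:9207-9990, plus strand, 784 bases): catctattgatgagggtctT
MT-ND3 (chrM:10059-10404, plus strand, 346 bases): aggattagactgaaccgaaT
MT-ND4L (chrM:10470-10766, plus strand, 297 bases): taaacctactccaatgcTAA
MT-ND4 (chrM:10760-12137, plus strand, 1378 bases): cattaccgggttttcctctT
MT-ND5 (chrM:12337-14148, plus strand, 1812 bases): ccctactcctaatcacaTAA
MT-ND6 (chrM:14149-14673, minus strand, 525 bases): agattgctcgggggaatAGG
MT-CYB (chrM:14747-15887, plus strand, 1141 bases): caaaatactcaaatgggccT
In 6 of the 13 genes (MT-ND1, MT-ND2, MT-CO3, MT-ND3, MT-ND4 and MT-CYB) the gene ends within the stop codon, after T or TA. MT-CO1 and MT-ND6 end in AGA and AGG, and the other 5 in TAG or TAA. Only MT-ND6 lies on the minus strand of the tables, so it comes from the other precursor than the remaining 12.

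Pairs of chrM genes share bases, which bears on how reads are divided between them. MT-ATP8 and MT-ATP6 share 46 bases (chrM:8527-8572), from the start codon of MT-ATP6 to the stop codon of MT-ATP8, both in capitals.
MT-ATP8/MT-ATP6: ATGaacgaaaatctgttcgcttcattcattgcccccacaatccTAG
MT-ND4L and MT-ND4 share 7 bases and MT-ATP6 and MT-CO3 share 1. The ends shown for MT-ATP8 and MT-ND4L therefore lie inside sequence shared with the next gene and are not mRNA ends. Each of these pairs is carried by 1 mRNA, or by precursors that hold both, so the values of the partners are not independent estimates.

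The 12 plus-strand chrM genes were above every nuclear member in 5 libraries, and all 12 had their lowest value in PBS library 3. MT-CO1, the catalytic subunit of complex IV, had 1676, 1862 and 2278 FPKM in rhPOSTN libraries 1 to 3, against 2184, 2402 and 495 FPKM in PBS libraries 1 to 3. It was the highest chrM gene in 5 libraries, and MT-CO2 was the highest in PBS library 3. MT-CO2, which receives the electrons from cytochrome c, had 1359, 1604 and 1923 FPKM with rhPOSTN, against 1848, 2007 and 802 FPKM with PBS. Its deviation in PBS library 3 from the mean of PBS libraries 1 and 2 was the smallest of the 12 plus-strand genes (-1.26 on the log2 scale). MT-CO3, the third core subunit of complex IV, had 776, 964 and 1312 FPKM with rhPOSTN, against 1149, 1295 and 174 FPKM with PBS.

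The complex III subunit cytochrome b showed the largest deviation. MT-CYB had 310.2, 429 and 704 FPKM in rhPOSTN libraries 1 to 3, against 560.1, 669 and 63.2 FPKM in PBS libraries 1 to 3. PBS library 3 lay -3.26 from the mean of PBS libraries 1 and 2 on the log2 scale, and rhPOSTN libraries 1 and 2 lay between it and the remaining 3 libraries. Of the complex I subunits, MT-ND5, a proton-pumping subunit, had 319.8, 368 and 627 FPKM with rhPOSTN, against 583, 579 and 60.5 FPKM with PBS. MT-ND4, another proton-pumping subunit, had 1031, 1297 and 1851 FPKM with rhPOSTN, against 1718, 1889 and 198 FPKM with PBS. In both genes PBS library 3 was the lowest library by a wide margin, with deviations of -3.24 and -3.18. MT-ND1, which helps form the ubiquinone site, had 949, 1181 and 1623 FPKM with rhPOSTN, against 1394, 1549.6 and 228 FPKM with PBS. The proton-pumping subunit MT-ND2 had 514, 707 and 1031 FPKM with rhPOSTN, against 883, 1016 and 108 FPKM with PBS. The short subunits deviated less: MT-ND3 had 291, 329 and 368 FPKM with rhPOSTN, against 316, 324 and 102 FPKM with PBS. MT-ND4L had 1051, 999 and 1234 FPKM with rhPOSTN, against 1319.8, 1248 and 348 FPKM with PBS. PBS library 3 was again the lowest for both, at -1.64 and -1.88.

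**Figure D1:**
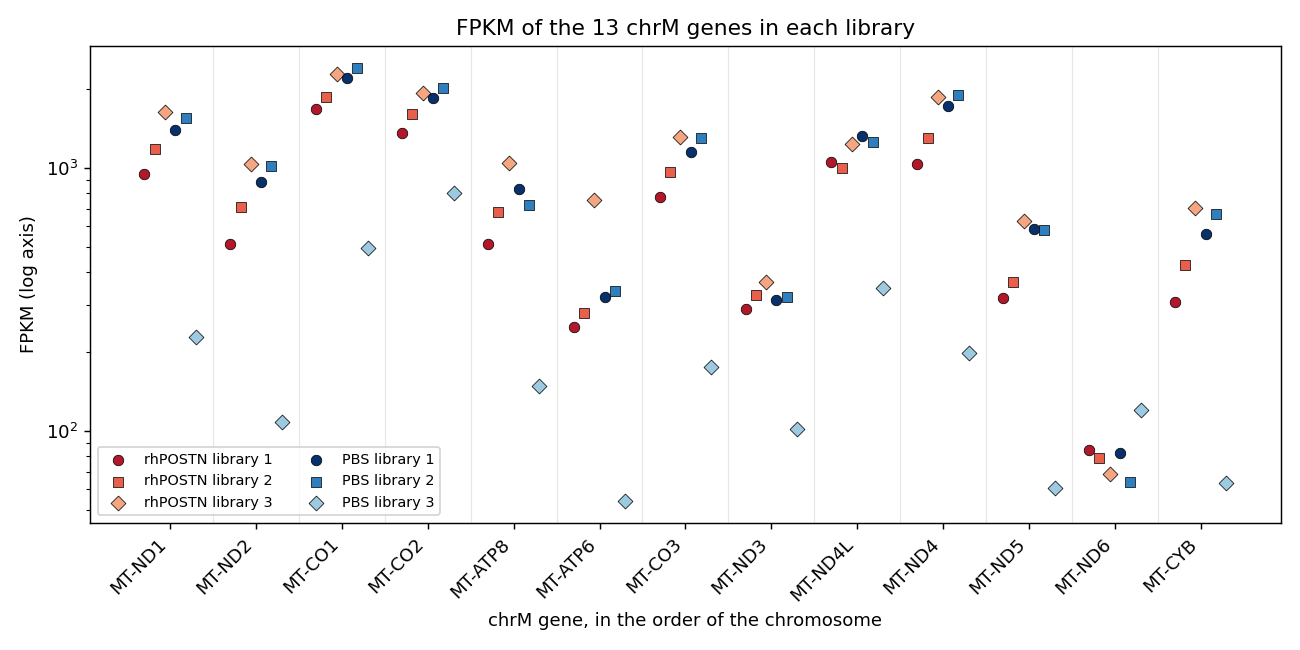
FPKM (log axis) of each of the 13 chrM genes, 1 point per library, with the 3 rhPOSTN libraries (red) to the left of the 3 PBS libraries (blue). PBS library 3 (light blue diamonds) is the lowest library for 12 genes and the highest for MT-ND6, at 120.2 FPKM, and rhPOSTN library 3 stands above the others for MT-ATP6, at 753 FPKM.

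MT-ND6, a complex I subunit and the only member from the other strand, went the other way. It had 84.5, 78.7 and 68.8 FPKM in rhPOSTN libraries 1 to 3, against 82.2, 64.2 and 120.2 FPKM in PBS libraries 1 to 3, so that PBS library 3 was the highest of the 6. The libraries were stranded, but whether strand was used in estimating abundance is not given in the sources used here, so MT-ND6 fragments and those of the plus-strand precursor across its locus cannot be told apart. Its deviation there was 0.72, where the 12 plus-strand genes had deviations of -3.26 to -1.26. As a share of the summed FPKM of the 13 chrM genes, MT-ND6 made up 0.926, 0.730 and 0.465% in rhPOSTN libraries 1 to 3, against 0.623, 0.455 and 4.14% in PBS libraries 1 to 3. The ratio of MT-ND5 to MT-ND6, neighbours on opposite strands, was 3.78, 4.67 and 9.10 in rhPOSTN libraries 1 to 3, against 7.09, 9.02 and 0.504 in PBS libraries 1 to 3. The rhPOSTN libraries showed the same order on a smaller scale: MT-ND6 was 0.29 and 0.19 higher in libraries 1 and 2 than in library 3, while all 12 plus-strand genes were lower.

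The deviations of the plus-strand genes overlapped between the forms of the stop codon. MT-ATP8 and MT-ND4L count as complete but share an mRNA with the next gene, so the comparison does not test the stop codon. The 6 genes with an incomplete stop codon had deviations of -3.26 to -1.64 in PBS library 3 (median -2.96), and the 6 plus-strand genes with a complete one had -3.24 to -1.26 (median -2.30), ranges that overlap almost in full. The deviation tended to be more negative in longer genes: across the 13 chrM genes it had a Spearman rho of -0.66 and a Pearson r of -0.52 with transcript length. This is a description across genes that share libraries, a precursor and, for some, bases.

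The pair of complex V genes on chrM differed in rhPOSTN library 3. MT-ATP6, the subunit of the proton channel, had 249, 281 and 753 FPKM in rhPOSTN libraries 1 to 3, against 324, 341 and 54.2 FPKM in PBS libraries 1 to 3. MT-ATP8, a small subunit encoded on the same mRNA, had 513, 681 and 1044 FPKM with rhPOSTN, against 833, 724 and 148 FPKM with PBS. The ratio of MT-ATP6 to MT-ATP8 was 0.486, 0.412 and 0.721 in rhPOSTN libraries 1 to 3, against 0.389, 0.471 and 0.367 in PBS libraries 1 to 3. The ratio of MT-ATP6 to MT-CO3, its other neighbour, was 0.321, 0.292 and 0.574 in rhPOSTN libraries 1 to 3, against 0.282, 0.264 and 0.311 in PBS libraries 1 to 3. In both ratios rhPOSTN library 3 was the highest library and the other 5 lay close together. How fragments of the shared bases were divided is not given in the sources used here, and a shift of fragments between the partners was not tested.

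Of the summed FPKM of all listed genes, the chrM genes together took 4.95, 5.56 and 7.77% in rhPOSTN libraries 1 to 3, against 7.02, 7.36 and 1.48% in PBS libraries 1 to 3. The mean share was 6.10 ± 1.48% with rhPOSTN and 5.29 ± 3.30% with PBS (SD, n = 3 each), a difference of 0.808 percentage points that was smaller than the SD of either group. Without PBS library 3 the difference was -1.09 percentage points. The 78 nuclear members took 1.29, 1.48 and 1.32% in rhPOSTN libraries 1 to 3, against 1.29, 1.35 and 1.62% in PBS libraries 1 to 3. The ratio of the chrM sum to the nuclear sum was thus 3.85, 3.76 and 5.89 in rhPOSTN libraries 1 to 3, against 5.44, 5.44 and 0.916 in PBS libraries 1 to 3. Only in PBS library 3 did the nuclear genes hold the larger sum. This ratio is formed within a library and does not depend on how the library was scaled. In bulk RNA, fewer cells of a type and less RNA per cell cannot be told apart.

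Averaged over genes, the chrM members lay 4.59, 4.58 and 5.21 log2 units above the nuclear members in rhPOSTN libraries 1 to 3, against 5.07, 5.03 and 2.64 in PBS libraries 1 to 3. The mean was 4.79 ± 0.36 with rhPOSTN and 4.24 ± 1.39 with PBS (SD, n = 3 each). The difference of 0.55 became -0.25 without PBS library 3, so its direction rested on that library.

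The chrM genes were lowest relative to the nuclear genes in PBS library 3 in each of the 4 complexes that hold both. In complex I the ratio of the chrM sum to the nuclear sum was 4.09, 3.89 and 6.32 with rhPOSTN, against 5.96, 6.04 and 0.717 with PBS. In complex III, where MT-CYB is the only chrM gene, the ratio was 0.891, 1.07 and 2.03 with rhPOSTN, against 1.70, 1.87 and 0.132 with PBS. In complex IV it was 8.16, 7.18 and 10.3 with rhPOSTN, against 10.3, 10.1 and 3.04 with PBS. In complex V it was 1.81, 2.09 and 3.95 with rhPOSTN, against 2.68, 2.31 and 0.437 with PBS. Complex IV was the only one in which chrM genes kept the larger sum in PBS library 3, and rhPOSTN libraries 1 and 2 had lower ratios than rhPOSTN library 3 and PBS libraries 1 and 2 in all 4. The nuclear side moved in both directions: nuclear complex I genes summed to 1035, 1275 and 1077 FPKM with rhPOSTN, against 1057, 1103 and 1625 FPKM with PBS. Nuclear complex IV genes summed to 467, 617 and 535 FPKM with rhPOSTN, against 501, 566 and 483 FPKM with PBS. Nuclear complex III genes summed to 348, 399 and 347 FPKM with rhPOSTN, against 329, 358 and 478 FPKM with PBS. PBS library 3 had the highest nuclear sum in complexes I, II, III and V, though only narrowly in II and V. In complex IV it had the second lowest. Complex II, which has no chrM subunit, summed to 94.95, 117 and 103 FPKM with rhPOSTN, against 105, 104 and 118 FPKM with PBS, and complex V to 422, 460.4 and 455 FPKM with rhPOSTN, against 431, 460.4 and 462 FPKM with PBS.

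**Figure D2:**
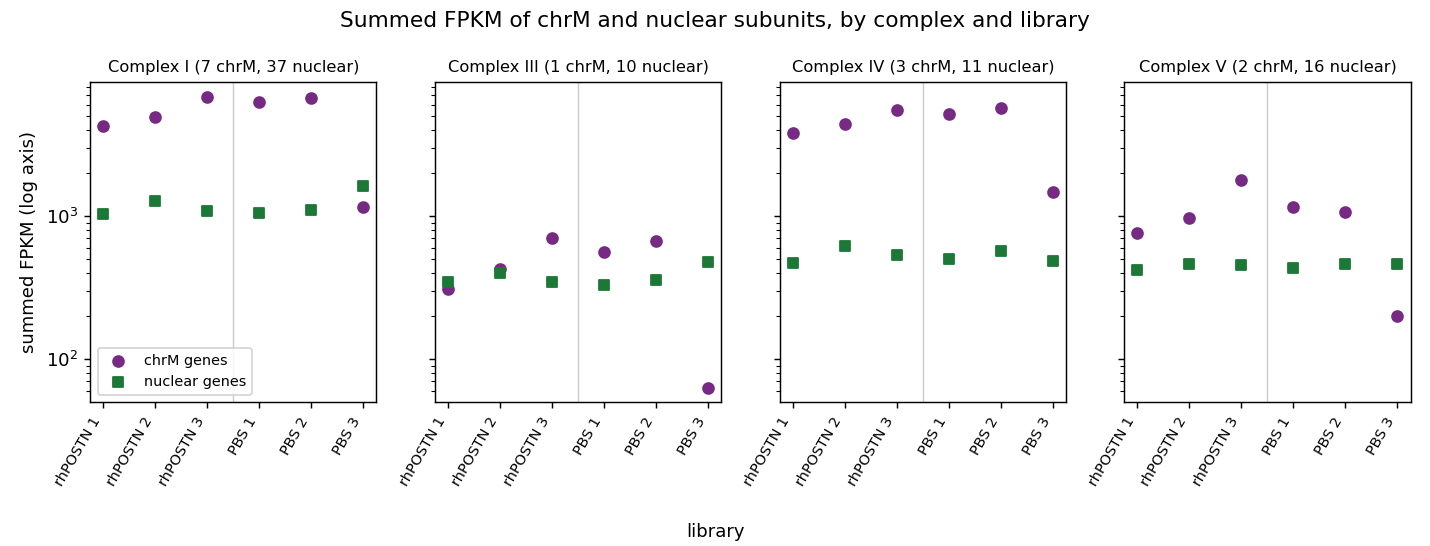
Summed FPKM (log axis) of the chrM genes (purple circles) and the nuclear genes (green squares) of complexes I, III, IV and V, 1 point per library, rhPOSTN to the left of PBS. In PBS library 3 the chrM sum falls below the nuclear sum in complexes I, III and V, with ratios of 0.717, 0.132 and 0.437, and stays above it in complex IV, with a ratio of 3.04. In complex III the chrM sum is also below the nuclear sum in rhPOSTN library 1, with a ratio of 0.891.

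No respiratory chain gene passed the threshold between rhPOSTN and PBS. The test called 0 of 90 members at an adjusted p under 0.05 (limma, Benjamini-Hochberg over all tested genes, lowest adjusted p 0.951), against 2 of 10982 genes or 0.0182% over the whole table. At an unadjusted p under 0.05 it took 0 members (lowest p 0.090, NDUFA6), against 353 genes or 3.21% over the whole table. The libraries of the groups did not overlap for 0 members with all rhPOSTN values above all PBS values, against 8.94% of all tested genes, and for 1 member with all below, ATP5F1, against 2.76%. The median difference was 0.63 over the 13 chrM genes, -0.03 over the 77 tested nuclear genes and 0.06 over all tested genes. Of the chrM genes 12 had a positive difference and 1, MT-ND6, a negative one.

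Without PBS library 3 the chrM differences had mostly the other sign. Their median was -0.26, with 3 positive and 10 negative, while the nuclear median was 0.05 and that of all tested genes 0.04. MT-CYB had a difference of 0.65 ± 0.90 (SE) with all 6 libraries and -0.43 without PBS library 3. MT-ND4 had 0.65 ± 0.86 and -0.41. MT-ATP6, the chrM gene with the largest difference, had 1.04 ± 0.79 and 0.17. No member reached an adjusted p under 0.05 in that fit either (0 of 90, lowest adjusted p 0.460), and 4 nuclear members had an unadjusted p under 0.05 with higher values in rhPOSTN, against 7.07% of all genes tested there. These 4 were NDUFA2, NDUFS8, NDUFV1 and ATP5E, and 0 members were lower, against 2.48% of all genes tested there. The standard error of the chrM genes with all libraries was 0.23 to 0.90, so differences of the size seen could not be told from the spread between libraries.

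**Figure D3:**
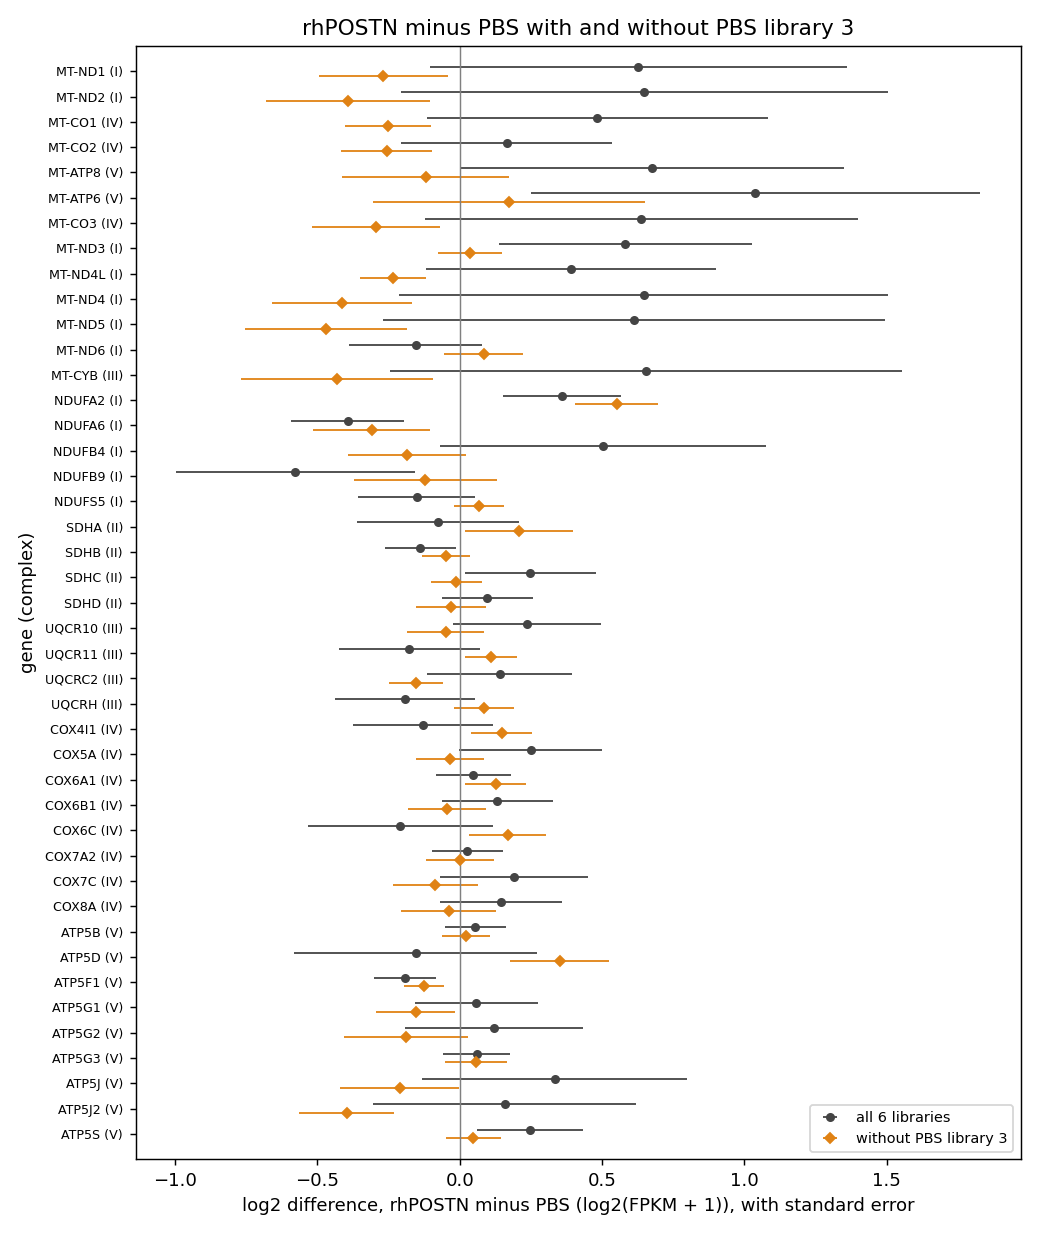
Log2 difference (rhPOSTN minus PBS, log2(FPKM + 1)) with its standard error for the 43 named members that were tested, by chrM order and then by complex, with all 6 libraries (grey circles) and without PBS library 3 (orange diamonds). The chrM genes other than MT-ND6 lie right of 0 with all libraries, and 10 of the 13 lie left of 0 without PBS library 3.

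The nuclear members deviated in PBS library 3 in both directions. Of the 77 tested, 33 (42.9%) lay more than 0.5 above the mean of PBS libraries 1 and 2, 20 (25.97%) more than 0.5 below it and 24 between, against 16.7% above and 20.9% below over all tested genes. PBS library 3 was the library farthest from the others for 61 of the 77 (79.2%), against 63.7% of all tested genes. By complex, 19 of 37 nuclear complex I genes lay above and 6 below, 1 and 1 of 4 in complex II, 5 and 2 of 9 in complex III, 3 and 5 of 11 in complex IV, and 5 and 6 of 16 in complex V. Among the 7 nuclear core subunits of complex I, which carry the flavin and iron-sulfur centres, 3 lay above and 0 below.

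**Figure D4:**
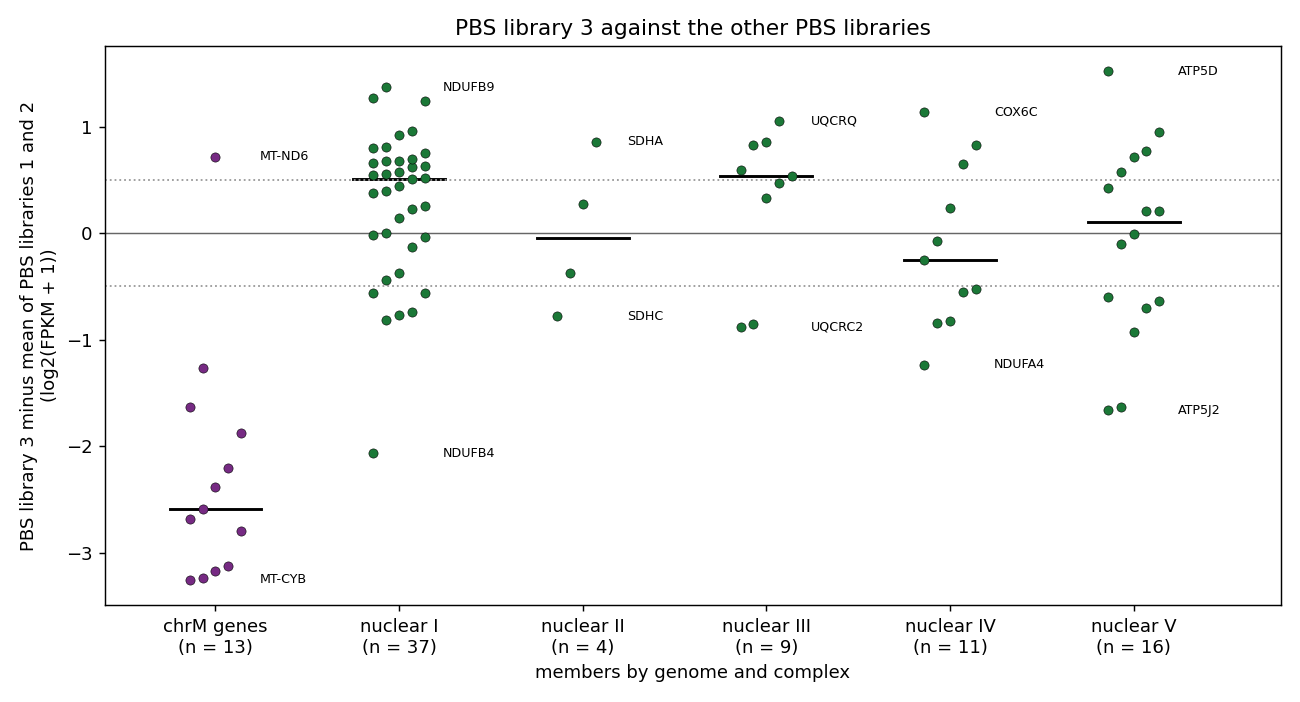
PBS library 3 minus the mean of PBS libraries 1 and 2 (log2(FPKM + 1)) for the chrM genes (purple) and the tested nuclear genes of each complex (green), 1 point per gene, with the median as a black bar and dotted lines at 0.5 and -0.5. The chrM genes lie between -3.26 (MT-CYB) and -1.26 except MT-ND6 at 0.72, and the nuclear genes spread from -2.07 (NDUFB4) to 1.52 (ATP5D).

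In the whole table the deviation of PBS library 3 went with base composition. Across 10881 tested genes outside chrM the deviation had a Spearman rho of 0.49 and a Pearson r of 0.47 with the GC content of the longest transcript, and across the 77 nuclear members a rho of 0.23 and an r of 0.23. Of the 24 nuclear members with under 45% GC, 7 lay above and 7 below, where 179 and 1333 of 4011 genes in that range did. Of the 35 members from 45 to 55% GC, 18 lay above and 8 below, against 441 and 667 of 3505 genes. Of the 18 members with 55% GC or more, 8 lay above and 5 below (median deviation 0.38), against 1196 and 259 of 3365 genes (median 0.31). The part of base composition in the members' values was not tested. Of the members' loci, 26 of the 78 nuclear ones overlap another listed gene, and among the 51 tested members without one, 18 lay above and 15 below.

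Promoters of the nuclear members are shown for the 4 genes in which a script found the letters GCGCATGCGC, the palindromic core bound by NRF1, a transcription factor known for regulating nuclear respiratory genes. RefSeq windows of 250 bases before to 50 bases after a start were matched for 62 of the 78 nuclear genes (74 windows, GRCh38.p14). The letters, the same on both strands, were in 4 of the 74 windows (5.41%) and in 1.24% of all 35116 windows. The stretches are printed 5′ to 3′ on the gene's strand, with the match in capitals.
NDUFB4 (chr3:120596152-120596211, plus strand): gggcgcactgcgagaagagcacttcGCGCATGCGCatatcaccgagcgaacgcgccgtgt
NDUFA8 (chr9:122159749-122159808, minus strand): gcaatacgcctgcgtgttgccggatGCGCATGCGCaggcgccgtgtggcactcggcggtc
ATP5C1 (ATP5F1C) (chr10:7788130-7788189, plus strand): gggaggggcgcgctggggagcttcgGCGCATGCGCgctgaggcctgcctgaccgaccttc
SDHD (chr11:112086738-112086797, plus strand): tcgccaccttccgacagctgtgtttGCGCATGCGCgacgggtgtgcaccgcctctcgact
NDUFB4, NDUFA8, ATP5C1 and SDHD were all lower in PBS library 3, with deviations of -2.07, -0.57, -0.70 and -0.38. The letters CCGGAAG, a core of ETS family factors such as GABPA, were on either strand of 28.4% of member windows and 10.3% of all windows. The 20 genes with them split into 15 higher and 5 lower in PBS library 3. The letters AAGATGGCG, bound by YY1, were in 13.5% of member windows and 1.75% of all, and of the 9 genes 7 were higher and 2 lower. Higher and lower here count deviations of any size. Over all 77 tested nuclear members the median deviation was 0.33, with 33 more than 0.5 above and 20 more than 0.5 below. More members were thus higher than lower in PBS library 3 whatever their letters. The splits for CCGGAAG and AAGATGGCG lean the same way and are not read as particular to those letters. A match of letters is a description and not a binding site, and these counts were not tested.

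In complex I, the NADH dehydrogenase, the nuclear genes with the largest differences were accessory subunits. NDUFB9 (chr8:125551344-125580751, plus strand), a subunit of the membrane arm, had 23.9, 33.2 and 20.98 FPKM in rhPOSTN libraries 1 to 3, against 22.4, 34.6 and 73.6 FPKM in PBS libraries 1 to 3. The high value of PBS library 3 set its difference of -0.58 ± 0.42, which was -0.12 without that library. The gene overlaps MTSS1 and TATDN1 on the other strand. NDUFA6 (chr22:42481529-42486959, minus strand) had 36.1, 43.03 and 42.6 FPKM with rhPOSTN, against 63.8, 39.8 and 60.2 FPKM with PBS, with a difference of -0.39 ± 0.20 (unadjusted p = 0.090, adjusted p = 0.951, limma) that was -0.31 without PBS library 3. PBS library 2 lay within the rhPOSTN range for NDUFA6, so the groups overlapped.

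NDUFB4 (chr3:120315156-120321347, plus strand), another membrane arm subunit and the first of the promoters above, had 9.39, 12.02 and 14.7 FPKM in rhPOSTN libraries 1 to 3, against 11.7, 15.9 and 2.49 FPKM in PBS libraries 1 to 3. It was the nuclear member with the lowest relative value in PBS library 3, and its difference of 0.50 ± 0.57 became -0.19 without it. NDUFA2 (chr5:140018325-140027370, minus strand), a matrix arm subunit, had 24.3, 33.8 and 26.5 FPKM with rhPOSTN, against 18.2, 19.3 and 28.5 FPKM with PBS. Here PBS library 3 lay among the rhPOSTN libraries, and the difference was 0.36 ± 0.21 with it and 0.55 without it. NDUFS5 (chr1:39491990-39500308, plus strand), the most abundant nuclear member in every library, had 213, 239.6 and 209 FPKM with rhPOSTN, against 205, 214 and 333 FPKM with PBS. The 5 rhPOSTN and PBS libraries other than PBS library 3 differed little, and the difference was -0.15 ± 0.20 (0.07 without PBS library 3).

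Complex II showed its 4 subunits split in PBS library 3. SDHA (chr5:218356-256815, plus strand), the flavoprotein, had 15.3, 23.5 and 16.4 FPKM in rhPOSTN libraries 1 to 3, against 16.7, 14.4 and 28.9 FPKM in PBS libraries 1 to 3. SDHB (chr1:17345217-17380665, minus strand), the iron-sulfur subunit, had 47.2, 53.7 and 47.5 FPKM with rhPOSTN, against 50.8, 51.4 and 61.99 FPKM with PBS. Both catalytic subunits were highest in PBS library 3. The membrane anchors were lowest there: SDHC (chr1:161284047-161345130, plus strand) had 6.52, 7.14 and 6.46 FPKM with rhPOSTN, against 6.42, 7.12 and 3.52 FPKM with PBS. SDHD (chr11:111957497-111990736, plus strand) had 25.9, 32.997 and 32.97 FPKM with rhPOSTN, against 30.7, 31.5 and 23.7 FPKM with PBS. The differences were -0.08, -0.14, 0.25 and 0.10 in that order, and 0.21, -0.05, -0.01 and -0.03 without PBS library 3.

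In complex III, the cytochrome bc1 complex, UQCRH (chr1:46769303-46782448, plus strand), the hinge subunit near cytochrome c1, had 68.4, 82.8 and 70.2 FPKM in rhPOSTN libraries 1 to 3, against 66.3, 72.4 and 124 FPKM in PBS libraries 1 to 3. UQCR11 (chr19:1597171-1605489, minus strand), a small subunit, had 35.04, 40.5 and 35.1 FPKM with rhPOSTN, against 33.1, 35.02 and 62.6 FPKM with PBS. In both, PBS library 3 alone was high, and the differences of -0.19 ± 0.25 and -0.18 ± 0.25 became 0.09 and 0.11 without it. UQCRC2 (chr16:21963981-21994981, plus strand), a core subunit of the matrix side, had 23.8, 26.8 and 27.7 FPKM with rhPOSTN, against 27.6, 30.6 and 15.3 FPKM with PBS. UQCR10 (chr22:30163358-30166402, plus strand), a small membrane subunit, had 52.6, 68.6 and 64.003 FPKM with rhPOSTN, against 58.9, 68.5 and 34.8 FPKM with PBS. These were lowest in PBS library 3, and their differences of 0.14 ± 0.25 and 0.23 ± 0.26 became -0.15 and -0.05.

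UQCRHL, an intronless copy of UQCRH, was the member that did not pass the filter, at 0.577 to 0.889 FPKM with rhPOSTN and 0.642 to 1.14 FPKM with PBS. Its level was 0.821 to 1.07% of that of UQCRH with rhPOSTN and 0.919 to 0.968% with PBS, a nearly constant share. The 604-base UQCRH transcript aligned within the longer UQCRHL transcript with 56 differences. Whether fragments were shared between these genes was not tested, and the value of UQCRHL is uncertain.

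In complex IV, cytochrome c oxidase, COX6C (chr8:100885428-100906290, minus strand) had 24.7, 31.2 and 23.1 FPKM in rhPOSTN libraries 1 to 3, against 23.2, 23.2 and 52.1 FPKM in PBS libraries 1 to 3. COX4I1 (chr16:85832239-85840650, plus strand), a regulatory subunit, had 18.05, 21.2 and 17.04 FPKM with rhPOSTN, against 16.4, 17.1 and 30.6 FPKM with PBS. PBS library 3 was the highest for both, with differences of -0.21 ± 0.32 and -0.13 ± 0.25 that became 0.17 and 0.15 without it. COX5A (chr15:75212132-75230509, minus strand) had 37.8, 46.6 and 46.3 FPKM with rhPOSTN, against 41.7, 47.2 and 24.3 FPKM with PBS. COX7C (chr5:85913721-85916779, plus strand) had 51.6, 71.03 and 65.7 FPKM with rhPOSTN, against 62.4, 69.99 and 36.8 FPKM with PBS. PBS library 3 was the lowest for both, with differences of 0.25 ± 0.25 and 0.19 ± 0.26 against -0.03 and -0.09 without it. COX8A (chr11:63742079-63744015, plus strand), the most abundant nuclear gene of complex IV, had 122, 173 and 143 FPKM with rhPOSTN, against 136, 163 and 101 FPKM with PBS, with a difference of 0.14 ± 0.21 (-0.04 without PBS library 3).

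Several complex IV subunits exist as tissue-specific paralogues, one form common to most tissues and one found in muscle, lung or testis. Only the common forms COX4I1, COX6A1, COX6B1, COX7A2 and COX8A had a row. COX6A1 (chr12:120875893-120878545, plus strand) had 80.3, 99.2 and 85.4 FPKM with rhPOSTN, against 78.2, 82.8 and 94.9 FPKM with PBS. COX6B1 (chr19:36139125-36149763, plus strand) had 50.9, 66.5 and 61.9 FPKM with rhPOSTN, against 56.7, 66.2 and 42.2 FPKM with PBS. COX7A2 (chr6:75947391-75960039, minus strand) had 16.1, 19.8 and 19.3 FPKM with rhPOSTN, against 17.01, 19.7 and 17.3 FPKM with PBS. Their groups overlapped, with differences of 0.05 ± 0.13, 0.13 ± 0.19 and 0.03 ± 0.12, which were 0.13, -0.04 and 0.00 without PBS library 3.

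In complex V, the ATP synthase, ATP5F1 (chr1:111991486-112005395, plus strand, now ATP5PB), a subunit of the peripheral stalk, was the only member whose groups did not overlap. It had 40.4, 39.5 and 42.6 FPKM in rhPOSTN libraries 1 to 3, against 45.5, 43.7 and 51.6 FPKM in PBS libraries 1 to 3. The highest rhPOSTN value lay just below the lowest PBS value, the difference was -0.19 ± 0.11 (adjusted p = 0.951, limma), and it was -0.12 without PBS library 3. ATP5D (chr19:1241745-1244825, plus strand, now ATP5F1D), a subunit of the central stalk, had 8.18, 10.2 and 6.58 FPKM with rhPOSTN, against 6.63, 5.83 and 19.7 FPKM with PBS. PBS library 3 was the highest, and the difference of -0.16 ± 0.43 became 0.35 without it. ATP5J (chr21:27088815-27107984, minus strand, now ATP5PF), a peripheral stalk subunit, had 19.3, 27.6 and 31.9 FPKM with rhPOSTN, against 28.3, 31.6 and 8.97 FPKM with PBS. It was lowest in PBS library 3, overlaps GABPA on the other strand, and had a difference of 0.33 ± 0.47 and of -0.21 without that library.

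ATP5J2 (chr7:99046098-99063954, minus strand, now ATP5MF), a membrane subunit, had 14.5, 20.8 and 20.4 FPKM with rhPOSTN, against 25.8, 23.2 and 7.02 FPKM with PBS. Its locus also holds the readthrough gene ATP5J2-PTCD1, which had 0.576, 0.525 and 0.510 FPKM with rhPOSTN, against 0.584, 0.346 and 7.47 FPKM with PBS. In PBS library 3 the subunit was low where the readthrough gene was high, and since they share exons, a different division of the same fragments and a change in either gene cannot be told apart. ATP5S (chr14:50779044-50802276, plus strand, now DMAC2L), named as a coupling factor of the synthase, had 1.75, 1.99 and 2.17 FPKM with rhPOSTN, against 1.81, 1.93 and 0.893 FPKM with PBS, with a difference of 0.25 ± 0.19 (0.05 without PBS library 3). The catalytic subunit ATP5B (chr12:57031959-57039852, minus strand, now ATP5F1B), the most abundant nuclear gene of complex V, had 111, 106 and 116 FPKM with rhPOSTN, against 103, 115 and 102 FPKM with PBS. It was among the most even of the members, with a difference of 0.05 ± 0.11 (0.02 without PBS library 3).

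ATP5G1, ATP5G2 and ATP5G3 (now ATP5MC1, ATP5MC2 and ATP5MC3) encode the same mature subunit c of the proton-driven ring. ATP5G2 (chr12:54026510-54071192, minus strand) had 19.2, 15.5 and 24.9 FPKM with rhPOSTN, against 19.3, 26.01 and 11.3 FPKM with PBS. ATP5G1 (chr17:46970127-46973233, plus strand) had 8.53, 11.6 and 10.9 FPKM with rhPOSTN, against 11.1, 12.01 and 7.06 FPKM with PBS. ATP5G3 (chr2:176040986-176049335, minus strand) had 11.4, 14.3 and 12.6 FPKM with rhPOSTN, against 12.04, 12.4 and 12.1 FPKM with PBS. ATP5G1 and ATP5G2 were lowest in PBS library 3 and ATP5G3 was not, and the differences were 0.06 ± 0.22, 0.12 ± 0.31 and 0.06 ± 0.12, which were -0.15, -0.19 and 0.06 without PBS library 3.

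The spread inside the rhPOSTN group resembled the deviation of PBS library 3. All 12 plus-strand chrM genes were lower in rhPOSTN libraries 1 and 2 than in rhPOSTN library 3, by a median of 0.81 and 0.49 on the log2 scale. Across the 77 nuclear members the deviation of PBS library 3 had a Spearman rho of 0.74 with rhPOSTN library 1 minus library 3 and of 0.79 with library 2 minus library 3 (Pearson r 0.80 and 0.74). Across all 10969 tested genes outside chrM the same rho values were 0.40 and 0.58 (Pearson r 0.31 and 0.40). These are descriptions across genes that share 6 libraries, and the rhPOSTN contrasts share library 3. NDUFB9 was 0.64 higher in rhPOSTN library 2 than in library 3 and ATP5D was 0.56 higher, both of which were high in PBS library 3. NDUFB4, low in PBS library 3, had values of -0.60 and -0.27 for rhPOSTN libraries 1 and 2 minus library 3.

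**Figure D5:**
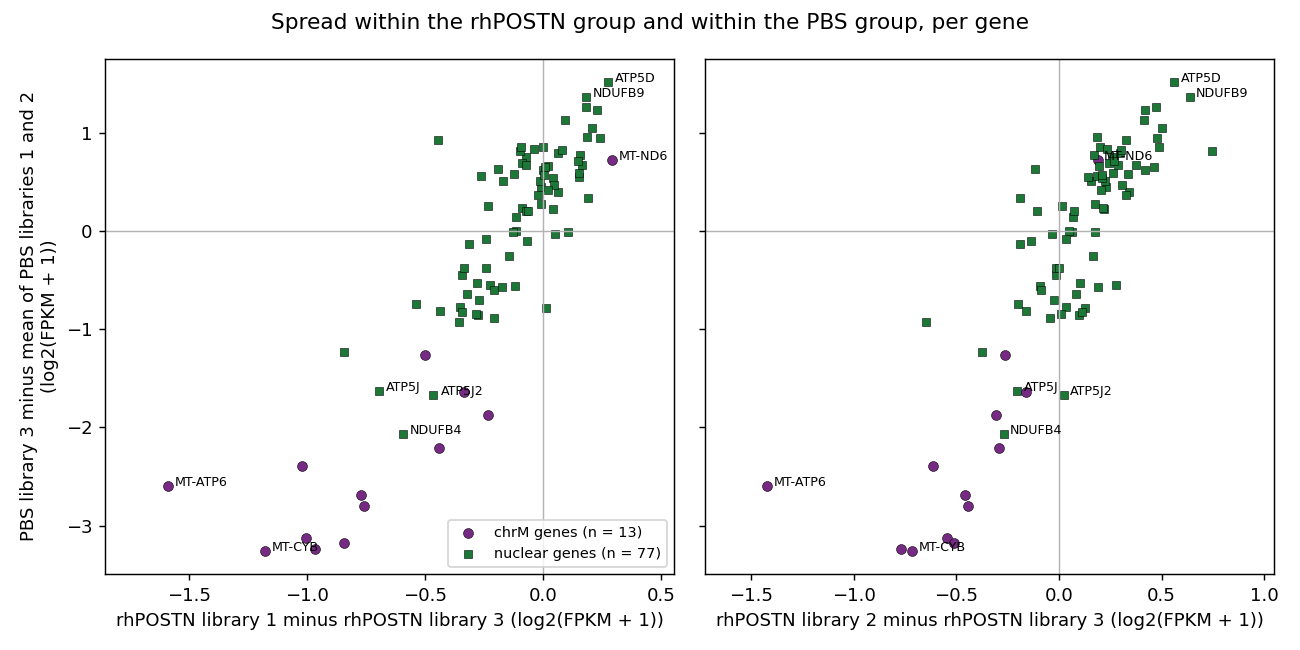
PBS library 3 minus the mean of PBS libraries 1 and 2 (vertical) against rhPOSTN library 1 minus library 3 (left) and rhPOSTN library 2 minus library 3 (right), in log2(FPKM + 1), 1 point per member, with chrM genes as purple circles and nuclear genes as green squares. The lower a member lay in PBS library 3, the lower its rhPOSTN contrast tended to be, with a rho of 0.74 and 0.79 over the 77 nuclear genes. Of these 77, 49 were lower in rhPOSTN library 1 than in library 3, and 18 were lower in rhPOSTN library 2 than in library 3.

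No gene of mitochondrial expression and assembly outside the members passed the threshold either. Of 141 tested genes in 9 lists, 0 passed the adjusted threshold. An unadjusted p under 0.05 (limma) was found for 1, YY1, against 3.21% of all tested genes. The list medians of the difference lay between -0.09 (14 chaperones and proteases) and 0.05 (18 complex I assembly factors), beside 0.06 over all tested genes. YY1, a transcription factor with targets among nuclear respiratory genes, had 19.8, 18.9 and 19.7 FPKM with rhPOSTN, against 17.8, 13.5 and 11.7 FPKM with PBS. Every rhPOSTN value was above every PBS value, as for 8.94% of all tested genes. In these lists UQCC1, MTERF3, NDUFAF6 and OMA1, among others, were separated in the same way. The difference of YY1 was 0.43 ± 0.16 (adjusted p = 0.951, limma), and 0.31 without PBS library 3.

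Of the 16 genes of mitochondrial DNA transcription and maintenance, 4 lay more than 0.5 above the mean of PBS libraries 1 and 2 in PBS library 3, 1 lay more than 0.5 below it and 11 lay between. TFAM, which packages mitochondrial DNA and starts its transcription, had 31.9, 31.4 and 31.8 FPKM with rhPOSTN, against 31.9, 32.1 and 28.6 FPKM with PBS. POLRMT, the mitochondrial RNA polymerase, had 11.1, 11.3 and 8.85 FPKM with rhPOSTN, against 8.75, 8.01 and 18.1 FPKM with PBS, and was highest in PBS library 3, where plus-strand chrM genes were lowest. MGME1, a mitochondrial exonuclease, had the largest positive difference of this list at 0.37 ± 0.24 (0.11 without PBS library 3), and MTERF4, a factor of mitochondrial ribosome assembly, the largest negative one at -0.23 ± 0.29 (0.01 without PBS library 3). LRPPRC, which stabilises chrM mRNAs, had 34.9, 30.95 and 31.4 FPKM with rhPOSTN, against 30.5, 30.3 and 31.8 FPKM with PBS, with a difference of 0.07 ± 0.10 (0.09 without PBS library 3). Among 18 genes of mitochondrial RNA processing the extremes were FASTKD5, at 0.17 ± 0.21 (-0.06 without PBS library 3), needed to process chrM precursors, and HSD17B10, at -0.20 ± 0.24 (0.08 without PBS library 3), a part of mitochondrial RNase P.

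Of 18 complex I assembly factors, 3 (16.7%) lay above and 4 (22.2%) below in PBS library 3, and of 34 factors for complexes II to V, 11 (32.4%) and 7 (20.6%), against 16.7% and 20.9% over all tested genes. NDUFAF8, needed to assemble complex I, had 18.9, 20.4 and 15.1 FPKM with rhPOSTN, against 12.6, 14.001 and 45.2 FPKM with PBS, and PET100, needed to assemble complex IV, had 7.70, 11.4 and 8.26 FPKM with rhPOSTN, against 8.16, 6.84 and 27.5 FPKM with PBS. Both were highest in PBS library 3, with differences of -0.15 ± 0.46 (0.41 without PBS library 3) and -0.35 ± 0.48 (0.24 without PBS library 3). The largest positive difference was that of ECSIT among the complex I assembly factors, at 0.29 ± 0.17 (0.44 without PBS library 3), and that of HIGD1A among those of complexes II to V, at 0.49 ± 0.48 (0.18 without PBS library 3). OXA1L, which inserts chrM-encoded proteins into the membrane, had 0.34 ± 0.29 (0.03 without PBS library 3) and LETM1, an inner membrane protein, -0.18 ± 0.23 (0.07 without PBS library 3). ESRRA, an orphan nuclear receptor known for driving mitochondrial genes, had -0.11 ± 0.31 (0.25 without PBS library 3), CLPP and DNAJA3, a protease and a chaperone of the matrix, 0.29 ± 0.19 (0.10 without PBS library 3) and -0.23 ± 0.11 (-0.29 without PBS library 3), and ETFDH, which also feeds ubiquinone, 0.07 ± 0.11 (0.07 without PBS library 3). Among genes of the citric acid cycle and pyruvate dehydrogenase, DLAT had 0.27 ± 0.44 (-0.25 without PBS library 3). CS, citrate synthase, had 27.1, 7.07 and 6.76 FPKM with rhPOSTN, against 9.42, 34.4 and 14.98 FPKM with PBS, with high values in 1 rhPOSTN and 1 PBS library and a difference of -0.58 ± 0.63 (-0.67 without PBS library 3).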

How the data were processed

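RNA-seq was performed on HMC3 cells treated with rhPOSTN or PBS, 3 libraries each (the 3 value columns of each group's sample record), grouped by the treatment label. Per the labels, mRNA was enriched with poly(A) beads or, as an alternative, rRNA was removed, and libraries were made with a stranded kit. The authors aligned reads with HISAT2 and estimated abundance with StringTie and Ballgown. The deposited values are FPKM, estimated by the authors per gene. The header of the rhPOSTN table names no unit, and FPKM was taken from the PBS table and the methods. The submitters' notes name GRCh37, the build of all gene coordinates here. The sources used here give neither tool versions nor whether strand was used in counting. All value columns were used (0 left out).

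StringTie divides fragments among transcripts that share sequence. Values were compared as log2(FPKM + 1) with limma 3.58.1 in R 4.3.3 (mean-variance trend, no covariate), for genes with a mean of at least 1 FPKM in at least 1 group, with Benjamini-Hochberg adjustment over all tested genes at 0.05. The procedure was tested on simulated data. Shares and ratios over members got no test. The deviation of PBS library 3 and the contrasts between rhPOSTN libraries are descriptions added after the values were seen. The members and gene lists were chosen with earlier results of these data known. Of 149 list entries, 143 had a row and 141 were tested. Genes were named by a rule: all chrM genes, in each complex the nuclear genes with the 2 largest positive and 2 largest negative differences and the most abundant one, the 5 with a library farthest from the others, the paralogues, and the extremes of each list. TFAM, POLRMT, LRPPRC, NDUFS8, NDUFV1, ATP5E, NDUFA8, ATP5C1, UQCC1, MTERF3, NDUFAF6 and OMA1 fall outside it and were chosen after their values were seen. Alternatives were other pseudocounts, filters, scalings, variance models, library weights, a replicate block and each library left out. Sequences came from GENCODE 29 (GRCh38) and RefSeq (GRCh38.p14), and no coordinates were converted.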

Additional observations from a re-analysis of the deposited data

How the results depend on the processing

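The count of 0 called members, with 2 genes called over the whole table, came from limma with all 6 libraries. No setting called a member: 0 were called with a pseudocount of 0.1 or 5, with no filter or a filter at 5 FPKM, with rescaled libraries, with other variance models, with library weights, with the replicate block and with any 1 library left out. Over all tested genes the count was 1 with a pseudocount of 0.1, 1 with a filter at 5 FPKM, 37 with library weights, 1 with the replicate block and between 1 and 11 with 1 library left out, 11 being without PBS library 3. Whether the library numbers pair the samples is not stated. Deviations of same-numbered libraries from their group means had correlations of -0.04, -0.19 and -0.42. The PBS mean includes PBS library 3, so these values cannot settle whether samples were paired. The replicate block is balanced over the groups, so the difference between chrM and nuclear members stays at 0.55 by construction. As a share of the members' own summed FPKM, chrM was 9.03 percentage points higher with rhPOSTN, in place of 0.808 points of all genes, and -3.20 points without PBS library 3, an alternative chosen after seeing the data. Leaving out 1 library at a time moved the difference in the share of all genes' summed FPKM between -1.09 and 1.84 points and the chrM minus nuclear difference between -0.25 and 0.96. FPKM holds no counts, so what sequencing depth limits is unknown.

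The differences of the 61 named and tested genes were past the threshold in no setting. Most changes of sign came without PBS library 3, to which the library weights gave 0.0838: 39 named genes changed sign without it, against 0 to 5 without each other library. With library weights the log2 differences had the other sign in 31 named genes, at -0.13 for MT-ND1, -0.22 for MT-ND2, -0.15 for MT-CO1, -0.17 for MT-CO2, -0.070 for MT-ATP8, -0.15 for MT-CO3, -0.21 for MT-ND4L, -0.27 for MT-ND4, -0.34 for MT-ND5, -0.22 for MT-CYB, 0.067 for NDUFS5, 0.11 for SDHA, -3.0e-05 for SDHD, 0.10 for UQCRH, 0.11 for UQCR11, -0.089 for UQCRC2, 0.13 for COX6C, 0.13 for COX4I1, -0.018 for COX7C, 0.24 for ATP5D, -0.10 for ATP5J, -0.40 for ATP5J2, -0.11 for ATP5G1, -0.038 for FASTKD5, 0.050 for HSD17B10, 0.0016 for LETM1, 0.40 for NDUFAF8, -0.23 for HIGD1A, 0.13 for PET100, 0.16 for ESRRA and -0.27 for DLAT. Under a median of ratios scaling they had the other sign in 5, at -0.027 for ATP5B, -0.033 for COX6A1, -0.051 for COX7A2, -0.016 for ATP5G1 and -0.017 for ATP5G3. Where leaving out 1 library turned a sign, the range over the 6 was -0.27 to 1.11 for MT-ND1, -0.39 to 1.22 for MT-ND2, -0.25 to 0.89 for MT-CO1, -0.26 to 0.41 for MT-CO2, -0.12 to 1.12 for MT-ATP8, -0.30 to 1.15 for MT-CO3, -0.24 to 0.72 for MT-ND4L, -0.41 to 1.21 for MT-ND4, -0.47 to 1.15 for MT-ND5, -0.36 to 0.084 for MT-ND6, -0.43 to 1.26 for MT-CYB, -0.19 to 0.95 for NDUFB4, -0.28 to 0.069 for NDUFS5, -0.27 to 0.21 for SDHA and -0.030 to 0.21 for SDHD. It was -0.012 to 0.41 for SDHC, -0.36 to 0.086 for UQCRH, -0.34 to 0.11 for UQCR11, -0.15 to 0.32 for UQCRC2, -0.049 to 0.43 for UQCR10, -0.40 to 0.17 for COX6C, -0.28 to 0.15 for COX4I1, -0.085 to 0.37 for COX7C, -0.033 to 0.43 for COX5A, -0.039 to 0.30 for COX8A, -0.45 to 0.35 for ATP5D, -0.21 to 0.64 for ATP5J, -0.40 to 0.47 for ATP5J2, -0.038 to 0.13 for COX6A1 and -0.044 to 0.27 for COX6B1. It was -0.025 to 0.11 for COX7A2, -0.15 to 0.19 for ATP5G1, -0.19 to 0.38 for ATP5G2, -0.020 to 0.13 for ATP5G3, -0.40 to 0.020 for MTERF4, -0.064 to 0.29 for FASTKD5, -0.33 to 0.076 for HSD17B10, -0.35 to 0.073 for LETM1, -0.47 to 0.41 for NDUFAF8, -0.69 to 0.24 for PET100, -0.33 to 0.25 for ESRRA and -0.25 to 0.54 for DLAT. The cause was not tested.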
